A study of Homo sapiens with 45 samples.

Results

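The 31 genes described here are well-known transcriptional targets of the tumour suppressor p53. They were chosen by gene symbol and each was matched to a single Ensembl identifier, which gave 31 of the 60624 genes listed in each of the 4 count tables. By role they comprise 5 brakes of the cell cycle (CDKN1A, BTG2, GADD45A, PLK2 and PLK3), 4 regulators that act back on p53 (MDM2, PPM1D, CCNG1 and FBXO22), 5 genes of mitochondrial apoptosis (BAX, BBC3, PMAIP1, TRIAP1 and SPATA18) and 3 death receptors (FAS, TNFRSF10A and TNFRSF10B). The others are 5 further death or survival genes (AEN, PHLDA3, TP53I3, TP53I11 and TP53INP1), 4 genes of DNA repair and nucleotide supply (XPC, DDB2, POLH and RRM2B), 3 genes of redox control and metabolism (SESN1, TIGAR and FDXR), the RNA-binding protein gene ZMAT3 and the secreted stress cytokine gene GDF15.

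The p53 protein is a transcription factor that is kept scarce in resting cells by MDM2, an E3 ubiquitin ligase that marks it for destruction. After DNA damage or other stress it accumulates, binds a response element made of a pair of decamers and raises genes that stop the cell cycle, repair DNA or trigger apoptosis. MDM2 is itself a p53 target, so the response limits itself. Several of these genes also answer to other regulators, above all ATF4 and CHOP in the integrated stress response, which act on GDF15, BBC3, PMAIP1 and TNFRSF10B. T47D, the line named in the labels, is a luminal breast cancer line. The p53 protein was not measured, and only RNA levels are reported here.

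The 45 libraries were made from polyadenylated RNA of cells labelled T47D, in 15 groups of 3, and came in 4 separate tables. In the shRNA table, hypoxic cells with a hairpin against the zinc finger homeobox gene ZHX2 (shZHX2) stood beside hypoxic and normoxic cells with a control hairpin (shCtrl). In the hexanediol table, hypoxic cells received no 1,6-hexanediol (control), 0.5% or 1% for 24 h. This alcohol is used to dissolve weak protein condensates. In the rescue table, hypoxic shZHX2 cells carried the PA form of ZHX2, the SA form, the wild-type form (WT) or an empty vector, beside hypoxic shCtrl cells with the vector. The labels do not say what PA and SA change. In the sgRNA table, hypoxic cells labelled sgZHX2 were set against sgCtrl cells, and hypoxic cells labelled teton sgZHX2 against a teton control. Every group except the normoxic one was hypoxic, and all cells were grown in RPMI medium and, where infected with lentivirus, selected with hygromycin or puromycin. The sources used here do not give the oxygen level, the hairpin and guide sequences, or whether the lines were clones. Nothing in the labels says whether replicates came from separate cultures. The p-values therefore measure only the spread between these libraries, which may be technical.

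The libraries of the shRNA table held 17476890 to 19480495 counts each, those of the hexanediol table held 14111216 to 17713327, those of the rescue table had 18056398 to 24760885 and those of the sgRNA table had 21225854 to 27217814. ZHX2 was at 5.15 ± 1.53 CPM, the count scaled to library size, in shZHX2 cells and 18.8 ± 2.64 CPM in shCtrl cells of the shRNA table (SD, n = 3 each). It was at 72.3 ± 1.44 CPM with WT, 54.0 ± 0.436 CPM with PA, 80.5 ± 2.26 CPM with SA, 6.86 ± 0.545 CPM with the vector in shZHX2 cells and 32.0 ± 1.99 CPM in shCtrl vector cells of the rescue table. It was no lower in the libraries labelled sgZHX2, at 49.6 ± 1.69 CPM against 45.1 ± 1.36 CPM in sgCtrl, nor in those labelled teton sgZHX2, at 49.3 ± 1.34 CPM against 47.5 ± 1.85 CPM in the teton control, so RNA levels do not check those labels. The luminal epithelial genes KRT8, KRT18, KRT19, EPCAM, CDH1, GATA3, FOXA1 and ESR1 were present in every library. TFF1 and PGR, also luminal markers, differed widely between tables and are given below.

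The tables nevertheless stood apart from each other. MTAP, a gene next to CDKN2A on chromosome 9, was at 4.22 to 18.6 CPM in the shRNA table and 12.2 to 20.9 CPM in the hexanediol table, but at 0.0418 to 0.206 CPM in the rescue table and 0.0864 to 1.42 CPM in the sgRNA table. CDKN2A ran from 95.7 to 184 CPM, 7.88 to 12.9 CPM, 0.404 to 1.04 CPM and 0.712 to 1.80 CPM across the same tables. The oestrogen target TFF1 ran the other way, at 4331 to 9144 CPM in the rescue table against 0.571 to 13.7 CPM in the shRNA table. It was at 0.110 to 2.78 CPM in the hexanediol table and 2390 to 3182 CPM in the sgRNA table. PGR was at 60.4 to 282 CPM in the shRNA table and 50.1 to 674 CPM in the hexanediol table. In the rescue and sgRNA tables PGR was at 9.52 to 24.7 CPM and 4.62 to 25.5 CPM. MTAP and CDKN2A were chosen after their values were seen, and the cause of these differences was not tested. Every test below was therefore made within a table.

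Several p53 targets also differed widely in level between tables, but not all with the same order of tables. In the hypoxic control group of each table, CDKN1A, the p21 inhibitor of cyclin-dependent kinases, averaged 331 CPM in the shRNA table, 9.98 CPM in the hexanediol table, 1821 CPM in the rescue table, and 1388 CPM (sgCtrl) and 1256 CPM (teton control) in the sgRNA table. The highest of these means was 182 times the lowest. GDF15 averaged 10.3, 0.228, 408, 483 and 462 CPM in the same 5 groups, and its lowest mean rests on 10 counts summed over 3 libraries. PPM1D, a phosphatase that switches off p53 signalling, averaged 6.10, 9.64, 82.3, 179 and 172 CPM. These 3 genes were all far higher in the rescue and sgRNA tables. TP53I3, a quinone oxidoreductase gene also called PIG3, had the reverse order, with 719, 117, 11.7, 17.6 and 27.9 CPM. POLH, a translesion DNA polymerase, and TNFRSF10A, a receptor for the death ligand TRAIL, varied least, with a highest mean 2.37 and 2.45 times the lowest. The tables were not normalised together, so these levels are a description without a test.

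**Figure D1:**
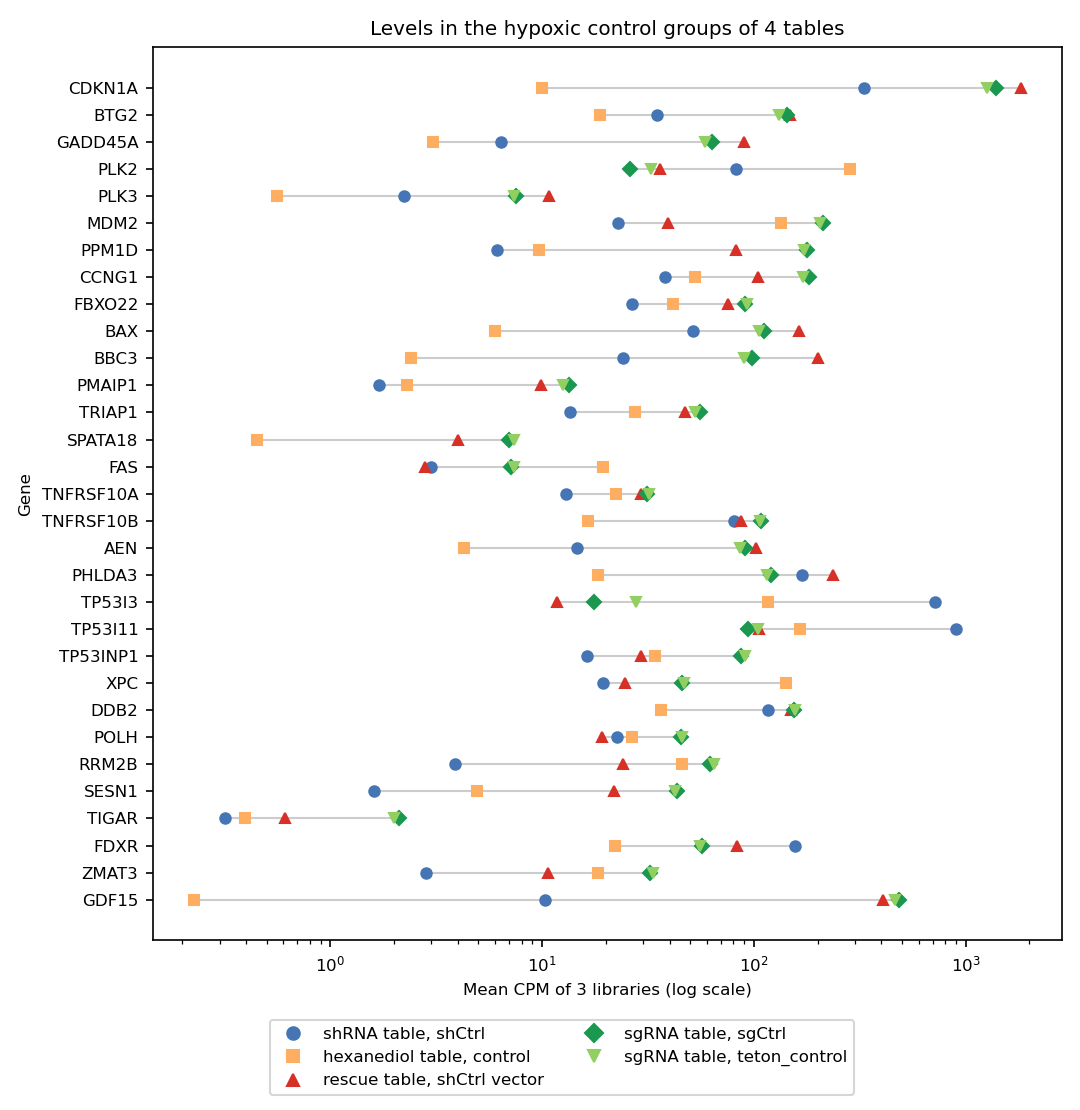
Mean CPM of each of the 31 p53 target genes (rows, log axis) in the hypoxic control group of each table, with each group as a separate symbol (n = 3 libraries each). SPATA18 in the shRNA table has a mean of 0 and is not drawn. CDKN1A spans 9.98 to 1821 CPM and GDF15 0.228 to 483 CPM across tables, while POLH and TNFRSF10A lie close together.

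Per kilobase of exon, the members also covered a wide range within a group. In shCtrl vector cells CDKN1A stood at 1888 TPM, a share of all transcripts after correction for exon length. GDF15 was at 619 TPM and PHLDA3, an inhibitor of AKT signalling, at 239 TPM. BBC3 (PUMA) and BAX, which act in mitochondrial apoptosis, were at 201 TPM each. At the other end were ZMAT3 at 3.52 TPM, SPATA18 at 2.58 TPM, FAS at 2.08 TPM and TIGAR at 0.480 TPM. MDM2 was at 9.37 TPM. SPATA18, a gene of mitochondrial quality control, had 0 counts in all 9 libraries of the shRNA table, where a count of 0 allows up to 0.195 CPM by counting error alone. It and TIGAR, a fructose bisphosphatase that lowers glycolysis, fell below the low-count filter in the shRNA and hexanediol tables. Comparisons there cover 29 members, and those in the rescue and sgRNA tables all 31. In 14 members an exon overlaps a gene on the opposite strand, MDM2 with CPM and FAS with ACTA2 among them, and it is not given whether reads were counted by strand.

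Promoter windows from RefSeq (GRCh38.p14), running from 250 bases before to 50 bases after a transcription start, were at hand for 24 of the 31 members, in 37 windows. The p53 consensus decamer, searched on both strands with no mismatch, occurred in 6 of these windows, which is 16.2%, against 6.63% of all 35116 human windows. The full site, a pair of decamers up to 13 bases apart, occurred in 1 member window, that of the repair gene DDB2, and in 0.0285% of all windows. Of the 6 members with a match, AEN, FDXR and FAS were among the largest rises in shZHX2 vector against shCtrl vector cells of the rescue table. PLK2, DDB2 and SESN1 changed there by 0.44, 0.30 and 0.27 on the log2 scale, below the member median of 0.51. GDF15, with the largest rise there, had no match. The matches are shown in capitals, with their flanks in lower case:
DDB2, chr11:47214975-47215004, plus strand: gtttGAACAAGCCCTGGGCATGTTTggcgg
FDXR, chr17:74872986-74873015, minus strand: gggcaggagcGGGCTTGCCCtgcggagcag
AEN, chr15:88621296-88621325, plus strand: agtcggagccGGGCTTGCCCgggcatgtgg
SESN1, chr6:109009018-109009047, minus strand: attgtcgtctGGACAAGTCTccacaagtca
FAS, chr10:88991299-88991328, plus strand: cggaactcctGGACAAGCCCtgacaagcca
PLK2, chr5:58460199-58460228, minus strand: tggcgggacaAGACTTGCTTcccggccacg
The match starts 5 bases after the start site in DDB2 and 11, 34, 49, 122 and 132 bases before it in FDXR, AEN, SESN1, FAS and PLK2. FDXR and AEN hold the same 10 letters. The HIF core motif ACGTG (either strand) occurred in 24.3% of member windows against 21.4% of all windows, and the ATF4-type motif TGATGNAA (either strand) in 2.7% against 3.62%. A match is not evidence of binding, and response elements of other members may lie outside these windows.

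In the rescue table, ZHX2 knockdown went with higher RNA of most of the 31 members. Of these, 27 were higher and 2 lower in shZHX2 vector cells than in shCtrl vector cells, at an adjusted p under 0.05 in edgeR's quasi-likelihood test with Benjamini-Hochberg adjustment over all genes tested in the table. Over all 14302 genes tested, 33.9% were called higher and 35.3% lower. The members' median log2 fold change was 0.51, against -0.01 over all genes, and 7 members were at least 2-fold higher, against 7.19% of all genes. As CPM are shares of a library, a change in RNA per cell and a change in the fraction of cells that express a gene cannot be told apart in these bulk samples.

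GDF15 had the largest change. It was at 1867, 1889 and 1927 CPM in shZHX2 vector libraries, against 413, 407 and 405 CPM in shCtrl vector libraries, a log2 fold change of 2.21 ± 0.03 (SE, n = 3 each; edgeR adjusted p = 4.11e-70). All shZHX2 libraries were above all shCtrl libraries, with a gap far wider than the spread within either group. All 5 cell cycle brakes were higher. CDKN1A, already the most abundant member, was at 3894, 3892 and 3960 CPM in shZHX2 vector libraries, against 1849, 1853 and 1761 CPM in shCtrl vector libraries (log2 fold change 1.10 ± 0.03, edgeR adjusted p = 9.52e-52). The groups did not overlap. PLK3, PLK2, BTG2 and GADD45A rose by smaller amounts, with log2 fold changes of 0.77, 0.44, 0.46 and 0.40.

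The 5 further death and survival genes were also all higher. AEN, an exonuclease that acts in apoptosis, was at 325, 335 and 333 CPM in shZHX2 vector libraries, against 102, 102 and 104 CPM in shCtrl vector libraries (1.69 ± 0.03, adjusted p = 4.52e-59). TP53I3, PHLDA3, TP53INP1 and TP53I11 followed at 0.82, 0.72, 0.39 and 0.31. Among the death receptors FAS and TNFRSF10B (DR5) rose and TNFRSF10A (DR4) fell. FAS was scarce, at 5.91, 7.87 and 6.58 CPM in shZHX2 vector libraries and 2.99, 2.70 and 2.71 CPM in shCtrl vector libraries (1.28 ± 0.13, adjusted p = 4.01e-14). TNFRSF10A was at 20.2, 18.6 and 19.4 CPM in shZHX2 vector libraries and 28.4, 29.004 and 30.9 CPM in shCtrl vector libraries (-0.60 ± 0.06, adjusted p = 6.21e-14). The pair of TRAIL receptors thus moved in opposite directions, each without overlap of the groups.

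Of the mitochondrial apoptosis genes, PMAIP1 (NOXA), BAX and BBC3 rose by 1.15, 0.81 and 0.80 on the log2 scale. TRIAP1, which restrains apoptosis, fell by 0.27, and SPATA18 did not pass the test (0.13 ± 0.14, adjusted p = 0.408). In the feedback group FBXO22, an F-box protein known to mark methylated p53 for degradation, rose by 0.69, PPM1D by 0.60 and MDM2 by 0.33. MDM2 was at 46.7, 51.1 and 50.8 CPM in shZHX2 vector libraries, against 38.7, 38.1 and 41.2 CPM in shCtrl vector libraries. CCNG1, the cyclin G1 gene, did not pass the test (-0.02 ± 0.03, adjusted p = 0.697). MDM2 therefore moved much less than CDKN1A or GDF15. FDXR, the mitochondrial ferredoxin reductase, was at 201, 207 and 209 CPM in shZHX2 vector libraries, against 88.5, 81.9 and 80.8 CPM in shCtrl vector libraries (1.30 ± 0.03, adjusted p = 5.28e-49). TIGAR rose by 1.84 ± 0.25 (adjusted p = 1.28e-09) at very low levels, 1.97 to 2.35 CPM in shZHX2 vector libraries against 0.444 to 0.747 CPM in shCtrl vector libraries. ZMAT3 rose by 0.93, and the 4 DNA repair and nucleotide genes by 0.25 (POLH) to 0.51 (RRM2B). All 29 calls kept their direction under scaling by total count and under a GC and length correction, and the correction added CCNG1 as higher (0.16, adjusted p = 9.81e-06).

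Expression of WT ZHX2 in the knockdown cells went with the opposite pattern. With WT, 25 of the 31 members were lower and 1 higher than with the vector, against 34.6% lower and 35.1% higher over all genes. The median member changed by -0.68, and 6 members were at least 2-fold lower, against 7.89% of all genes. Both comparisons share the shZHX2 vector libraries, so their opposite signs are partly built in, and the levels of all 5 groups are therefore given together.

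GDF15 was at 1682, 1673 and 1669 CPM with PA, at 1613, 1528 and 1526 CPM with SA, at 604, 596 and 592 CPM with WT and at 1867 to 1927 CPM with the vector in shZHX2 cells, and at 405 to 413 CPM in shCtrl vector cells. CDKN1A was at 3457, 3423 and 3513 CPM with PA, 3370, 3245 and 3317 CPM with SA, 1915, 1951 and 1951 CPM with WT and 3892 to 3960 CPM with the vector in shZHX2 cells, and at 1761 to 1853 CPM in shCtrl vector cells. For both genes the WT libraries lay above the shCtrl vector libraries and the PA and SA libraries below the shZHX2 vector libraries, and no pair of these groups overlapped. GDF15 averaged 597 ± 5.81 CPM with WT and 408 ± 4.24 CPM in shCtrl vector cells, and CDKN1A averaged 1939 ± 20.9 CPM and 1821 ± 52.1 CPM (SD, n = 3 each). FDXR was at 165, 163 and 162 CPM with PA, 187, 174 and 176 CPM with SA and 81.6, 84.4 and 84.2 CPM with WT, the last within the range of shCtrl vector cells. Summed over all 31 members, the libraries held 8043 to 8079 CPM with PA, 7731 to 8011 CPM with SA, 4682 to 4713 CPM with WT and 8830 to 8953 CPM with the vector in shZHX2 cells, and 4117 to 4218 CPM in shCtrl vector cells. CDKN1A and GDF15 make up most of this sum.

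**Figure D2:**
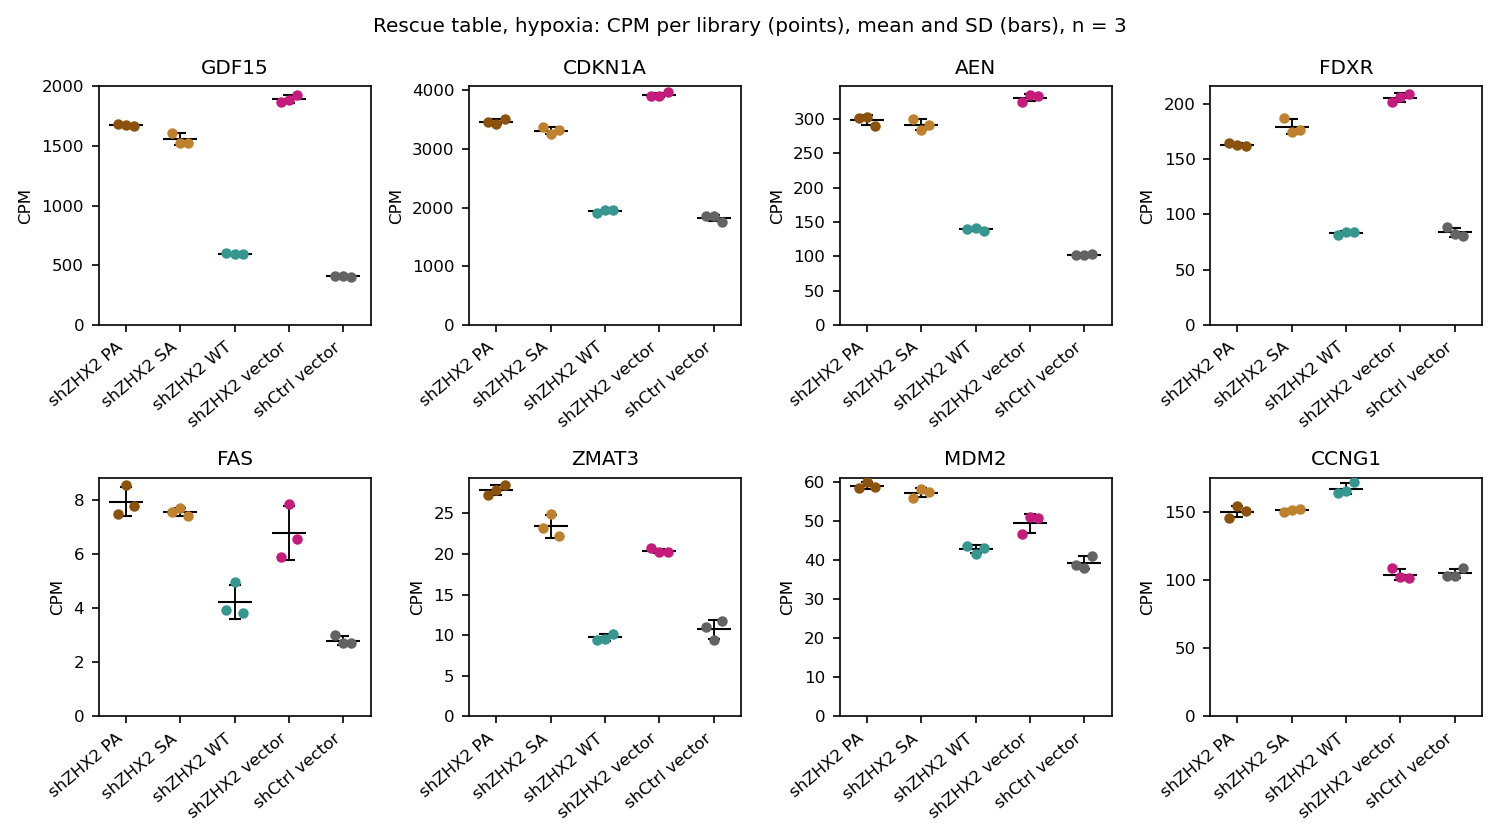
CPM of 8 p53 target genes in the 5 groups of the rescue table (points are libraries, bars the mean and SD, n = 3, linear axes from 0). For GDF15, CDKN1A, AEN and FDXR the WT libraries (592 to 604 CPM for GDF15) sit nearer to shCtrl vector than to shZHX2 vector and the PA and SA libraries nearer to shZHX2 vector, while CCNG1 is higher with all 3 ZHX2 forms than with either vector.

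The largest falls with WT against the vector were those of GDF15 (-1.67 ± 0.03, edgeR adjusted p = 1.45e-62), FDXR (-1.30 ± 0.03, 5.65e-49), AEN (-1.25 ± 0.03, 3.51e-51), TP53INP1 (-1.19 ± 0.06, 7.9e-31), ZMAT3 (-1.07 ± 0.08, 7.97e-22) and CDKN1A (-1.01 ± 0.03, 1.5e-49). MDM2 fell by 0.21. TNFRSF10A, TRIAP1, GADD45A, SESN1 and SPATA18 did not pass the test, and BAX (-0.38) no longer passed it with a GC and length correction. That correction called TRIAP1 (-0.22, against 0.061 without it), SESN1 (-0.26) and SPATA18 (-0.33) lower, and scaling by total count called GADD45A (-0.080) and SESN1 (-0.17) lower. CCNG1 was the exception that rose, to 164, 165 and 172 CPM with WT against 109, 102 and 101.1 CPM with the vector (0.68 ± 0.03, adjusted p = 1.1e-31). Relative to shCtrl vector cells, ZMAT3 and TP53INP1 differed from each other. ZMAT3, an RNA-binding regulator of splicing and RNA stability, was at 9.41, 9.59 and 10.2 CPM with WT and at 10.98, 9.47 and 11.7 CPM in shCtrl vector cells, where the groups overlap. TP53INP1, a cofactor of p53-driven apoptosis, was at 17.4, 16.8 and 16.6 CPM with WT and at 28.7, 29.5 and 30.2 CPM in shCtrl vector cells, where they do not.

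PA and SA differed from WT at most members. With PA, 27 of 31 members were higher than with WT and 2 lower, against 33.2% and 33.7% of all genes. With SA, 29 were higher and 1 lower, against 32.1% and 32% of all genes. Both comparisons share the WT libraries. GDF15 was higher by 1.49 ± 0.03 with PA (edgeR adjusted p = 2.74e-59) and by 1.38 ± 0.03 with SA (6e-57), CDKN1A by 0.84 ± 0.03 (5.52e-44) and 0.77 ± 0.03 (1.51e-41), and MDM2 by 0.46 ± 0.04 (1.81e-15) and 0.42 ± 0.04 (1.61e-13). TP53INP1 was at 55.3, 56.4 and 56.3 CPM with PA and 46.6, 41.9 and 43.4 CPM with SA, against 17.4, 16.8 and 16.6 CPM with WT (1.72 ± 0.06 and 1.37 ± 0.06). ZMAT3 was at 27.3, 27.9 and 28.5 CPM with PA and 23.2, 25.0 and 22.2 CPM with SA, against 9.41, 9.59 and 10.2 CPM with WT (1.52 ± 0.07 and 1.27 ± 0.07). PMAIP1 was at 28.9, 31.7 and 30.4 CPM with PA and 33.1, 32.3 and 34.6 CPM with SA, against 13.2, 13.5 and 11.8 CPM with WT (1.24 ± 0.07 and 1.38 ± 0.07). These 3 genes were also above the shZHX2 vector libraries in every PA and SA library. For SA against the vector, TP53INP1 (0.19) and ZMAT3 (0.20) lost this call with a GC and length correction, at 0.00068 (adjusted p = 0.993) and 0.049 (adjusted p = 0.621), and ZMAT3 also lost it without the second SA library (0.16). CCNG1 was slightly lower than with WT, by -0.15 with PA and -0.14 with SA, which turned to 0.11 and 0.066 with a GC and length correction, and with PA to 0.093 under scaling by total count. TRIAP1, lower by -0.16 with PA, turned to 0.18 with the correction.

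Against the vector, the PA and SA forms left the members near where the knockdown had them. With PA 12 members were higher and 10 lower (24.7% and 22.9% of all genes), with a range of -0.38 (BAX) to 0.54 (TP53INP1). With SA 11 were higher and 9 lower (20.2% and 21.5%), with a range of -0.28 (GDF15) to 0.61 (PMAIP1). GDF15 and CDKN1A were both a little lower, by -0.18 each with PA, a call that scaling by total count removed (adjusted p = 0.342 and 0.354), and by -0.28 and -0.24 with SA. With a GC and length correction GDF15 with PA turned to 0.082 and was called higher (edgeR adjusted p = 0.00261). CDKN1A went to 0.012 (0.722) and BAX to -0.15 (0.0893) with PA. Of the 22 member calls for PA that correction turned 3 and lost 5 others. Across the 31 members the fold change ran with gene GC content here (Spearman -0.758 for PA and -0.799 for SA, against -0.482 and -0.541 over all genes). With a GC and length correction SA against the vector called 3 members higher and 8 lower, against 1952 and 1864 of all 14302 genes. Under scaling by total count, PA against the vector called 16 members higher and 5 lower. That scaling moved the share of all calls that were higher to 76.4%, against 52.0%, and shifted all genes by 0.149 on the log2 scale. For PA against WT it gave 29 members higher and 0 lower, and 70.6% of all calls higher, against 49.6%.

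Other gene groups moved in the same libraries. Of 38 further p53 targets tested, 16 were higher and 14 lower in shZHX2 vector than in shCtrl vector cells, SERPINB5 (maspin) by 1.92 among them. Of 27 regulators of p53 tested, 2 were higher and 15 lower, and MDM4, the MDM2 partner that blocks p53, changed by -0.26, which a GC and length correction turned to 0.025. Of 23 genes that p53 represses through the DREAM complex, 20 were lower and 1 higher, CENPF by -1.83 and BUB1 by -1.72. Of 18 targets of ATF4 and CHOP, 14 were higher and 4 lower, among them CHAC1, at 23.4 CPM in shZHX2 vector and 1.53 CPM in shCtrl vector cells, and DDIT3 (CHOP), by 1.53. With WT against the vector the ATF4 and CHOP list had 4 higher and 13 lower, and the DREAM list 16 higher and 3 lower. These lists overlap in regulation with the members, and their part in the members' changes was not tested.

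Luminal markers also moved, with 9 of 10 lower and 1 higher in shZHX2 vector cells and a summed level of 39720 to 40880 CPM, against 50920 to 52370 CPM in shCtrl vector cells. The summed level of 13 markers of basal, stromal, blood and endothelial cells was 28.6 to 31.3 CPM in shZHX2 vector cells and 18.8 to 22.0 CPM in shCtrl vector cells, with 3 of the 13 at 0 in each. Nearly all of this sum was COL1A1. Without it the other 12 markers summed to 1.14 to 1.57 CPM in shZHX2 vector cells and 0.943 to 2.15 CPM in shCtrl vector cells. Mitochondrial transcripts took 1.16 to 1.26% of counts with PA, 1.12 to 1.19% with SA, 0.312 to 0.333% with WT and 0.785 to 0.807% with the vector in shZHX2 cells, and 0.749 to 0.778% in shCtrl vector cells. The part of these shifts in the members' changes was not tested.

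The shRNA table holds another comparison of shZHX2 with shCtrl cells, in libraries not shared with the rescue table. Cells of these tables also differed in MTAP, CDKN2A, TFF1 and PGR levels, as given above. Of 29 members tested, 16 were higher and 7 lower in hypoxic shZHX2 cells than in hypoxic shCtrl cells, against 33.6% and 33.2% of all 14903 genes, and the median member changed by 0.18, against 0.02 over all genes. All 4 feedback genes were higher, though FBXO22 turned to -0.13 (adjusted p = 0.0708) with a GC and length correction. MDM2 was at 38.7, 39.2 and 42.8 CPM in shZHX2 libraries, against 22.5, 24.7 and 21.4 CPM in shCtrl libraries (0.81 ± 0.07, edgeR adjusted p = 9.81e-17). PPM1D rose by 0.90, CCNG1 by 0.88 and FBXO22 by 0.17. The largest rise was that of RRM2B, the p53-inducible ribonucleotide reductase subunit, at 11.4, 10.7 and 11.3 CPM in shZHX2 libraries against 3.32, 3.35 and 4.99 CPM in shCtrl libraries (1.51 ± 0.13, adjusted p = 7.46e-16). ZMAT3 was at 7.22, 7.34 and 8.56 CPM in shZHX2 libraries and 3.00, 2.47 and 3.04 CPM in shCtrl libraries (1.44 ± 0.15, adjusted p = 2.48e-12). None of these groups overlapped. CDKN1A and GDF15 rose less than in the rescue table. CDKN1A was at 427, 414 and 431 CPM in shZHX2 libraries against 327, 331 and 335 CPM in shCtrl libraries (0.36 ± 0.03, adjusted p = 2.23e-17), and GDF15 at 15.1, 15.5 and 16.3 CPM against 10.6, 11.6 and 8.76 CPM (0.60 ± 0.12, adjusted p = 4.96e-05).

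The largest falls were those of a pair of death receptors and of the polo-like kinases. TNFRSF10A was at 4.91, 4.08 and 3.98 CPM in shZHX2 libraries, against 14.8, 11.6 and 12.7 CPM in shCtrl libraries (-1.59 ± 0.13, adjusted p = 3.78e-17). PLK2, a stress-induced kinase, was at 31.6, 33.0 and 30.8 CPM in shZHX2 libraries, against 82.7, 86.5 and 77.9 CPM in shCtrl libraries (-1.37 ± 0.05, adjusted p = 2.93e-33). PLK3 changed by -1.02 ± 0.28 and FAS by -0.82 ± 0.23, both at no more than 4 CPM in any library of the comparison. In each of these 4 genes every shZHX2 library lay below every shCtrl library. Scaling by total count gave 19 members higher and 5 lower, with 67.6% of all calls higher, against 50.3%, and shifted all genes by 0.234.

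Set side by side, 22 of the 29 members tested in both tables were called in both knockdown comparisons. Of these, 15 were higher in both, 2 lower in both (TNFRSF10A and TRIAP1) and 5 opposite, so 77.3% had the same sign, against 61.1% of the 6725 genes called in both tables. Of the members tested, 51.7% were higher in both, against 15.4% of all 13060 genes. The 5 opposite ones, PLK2, PLK3, FAS, TP53I3 and DDB2, were higher in shZHX2 cells in the rescue table and lower in the shRNA table, though TP53I3 in the shRNA table turned to 0.060 under scaling by total count. The ATF4 and CHOP targets differed too, with 6 higher and 9 lower of 17 tested in the shRNA table, where CHAC1 changed by -1.83. MDM4 rose by 0.44 in shZHX2 cells of the shRNA table. Of 24 DREAM-repressed genes 22 were lower and 0 higher. Luminal markers summed to 27370 to 27640 CPM in shZHX2 cells and 58550 to 59230 CPM in hypoxic shCtrl cells, and mitochondrial transcripts took 11.9 to 12.4% of counts against 9.12 to 9.57%. The 13 markers of other cell types summed to 69.6 to 72.8 CPM in shZHX2 cells and 48.05 to 53.02 CPM in hypoxic shCtrl cells, and without COL1A1 to 0.218 to 0.497 CPM and 1.14 to 1.82 CPM. Their part in the result was not tested.

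**Figure D3:**
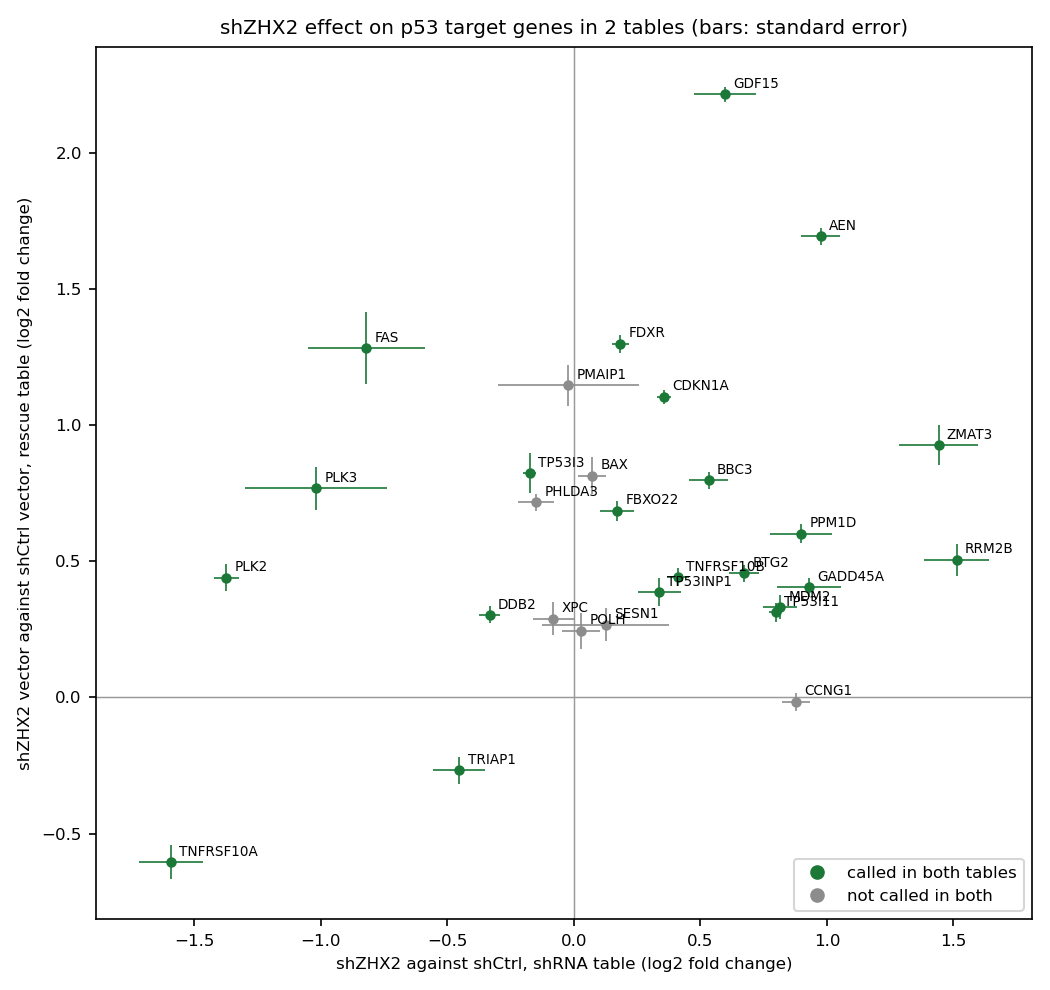
Log2 fold change of each member in shZHX2 against shCtrl cells in the shRNA table (x axis) and in the rescue table (y axis), with bars of 1 SE, for the 29 members tested in both (n = 3 libraries per group). Most points lie above 0 on the y axis, with RRM2B and ZMAT3 far right, GDF15 highest, and FAS, PLK2 and PLK3 at upper left.

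Hypoxia in control cells split the members, as it did all genes. In hypoxic shCtrl cells 13 of 29 were higher and 12 lower than in normoxic shCtrl cells, against 43.1% and 36.8% of all genes, with a median of -0.08 against 0.12 over all genes. The largest rises were those of PUMA and of the cell cycle brakes BTG2 and CDKN1A. BBC3 was at 25.4, 23.5 and 23.3 CPM in hypoxia, against 6.51, 5.97 and 4.99 CPM in normoxia (2.05 ± 0.09, edgeR adjusted p = 1.95e-28). BTG2, an antiproliferative regulator of mRNA decay, was at 34.5, 35.3 and 34.9 CPM in hypoxia, against 11.3, 12.4 and 11.2 CPM in normoxia (1.59 ± 0.07, adjusted p = 1.43e-29). CDKN1A was at 327, 331 and 335 CPM in hypoxia, against 127, 127 and 128 CPM in normoxia (1.38 ± 0.03, adjusted p = 6.98e-45). None of the 3 overlapped between groups. GDF15 rose by 0.45 ± 0.13 (adjusted p = 0.00199) at 8.76 to 11.6 CPM in hypoxia against 5.55 to 8.65 CPM in normoxia, a rise lost under scaling by total count (-0.0325, adjusted p = 0.831).

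All 4 feedback genes fell with hypoxia, but with a GC and length correction MDM2, FBXO22 and CCNG1 turned to 0.30, 0.88 and 0.52 and PPM1D no longer passed the test (-0.21, adjusted p = 0.122). MDM2 was at 22.5, 24.7 and 21.4 CPM in hypoxia, against 46.7, 46.6 and 50.9 CPM in normoxia (-1.07 ± 0.06, adjusted p = 8.48e-23), and FBXO22, CCNG1 and PPM1D changed by -0.78, -0.76 and -0.75. The largest falls were those of RRM2B, at 3.32 to 4.99 CPM in hypoxia against 23.9 to 27.5 CPM in normoxia (-2.73 ± 0.11, adjusted p = 3.12e-30), and of FAS, at 2.62 to 3.58 CPM against 12.4 to 15.3 CPM (-2.24 ± 0.16, adjusted p = 3.06e-16). ZMAT3 (-1.71), SESN1, a sestrin that restrains mTORC1 (-1.53), and AEN (-1.12) fell as well. In RRM2B, ZMAT3, MDM2 and AEN the hypoxic shZHX2 libraries lay between those of hypoxic and of normoxic shCtrl cells, MDM2 at 38.7 to 42.8 CPM and AEN at 28.1 to 30.03 CPM in shZHX2 cells, with AEN at 31.2 to 33.1 CPM in normoxia. Hypoxia and knockdown comparisons share the hypoxic shCtrl libraries.

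The hypoxia result depended on scaling and base composition. Across the 29 members the fold change rose with gene GC content (Spearman 0.745, against 0.694 over all genes). With the GC and length correction 12 members were called higher and 13 lower, against 5182 and 5335 of all 14903 genes. Of the 25 calls made without it, 8 changed direction. Besides MDM2, CCNG1 and FBXO22, these were GDF15 (-0.47), BAX (-0.54), TP53I3 (-0.48), FDXR (-0.40) and PHLDA3 (-0.32), all called higher without it. ZMAT3 went to -0.20 (adjusted p = 0.231). PMAIP1 (0.74), TRIAP1 (0.55) and TP53INP1 (1.22) were called higher and TNFRSF10A (-0.32) lower with the correction only. GADD45A and PLK3 lost their calls under this correction and under scaling by total count. That scaling called 5 members higher and 18 lower, BAX (-0.25) and TP53I3 (-0.20) among the lower ones, with 29.6% of all calls higher, against 53.9%, and shifted all genes by -0.485. BBC3, BTG2 and CDKN1A remained higher under both, CDKN1A by 0.89 with scaling by total count and by 0.65 with the correction. MDM4 changed by -0.65, which turned to 0.59 with the GC and length correction. Of 27 p53 regulators 6 were higher and 17 lower, ATR and ATM included, and of 37 further p53 targets 20 were higher and 11 lower. Mitochondrial transcripts took 9.12 to 9.57% of counts in hypoxia against 4.55 to 4.76% in normoxia. Luminal markers summed to 58550 to 59230 CPM in hypoxia and 22580 to 24330 CPM in normoxia, and the 13 markers of other cell types to 48.05 to 53.02 CPM and 33.95 to 37.7 CPM, again mostly COL1A1. The part of these shifts in the result was not tested.

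At 1% hexanediol GDF15, GADD45A and PMAIP1 rose by more than any member did in the other comparisons with a control. The second library stood apart from the others of its group at 0.5% (chi-square per degree of freedom 25 and 23.1, against 3.1 between the other libraries) and, less so, at 1% (8.46 and 8.58, against 1.9). At 0.5%, 7 of 29 members were higher and 6 lower than in the untreated control (19.4% and 19.6% of all 16840 genes). At 1%, 15 were higher and 5 lower (30.2% and 32.3%), with a median of 0.38 against -0.04 over all genes, and 9 were at least 2-fold higher, against 11.1% of all genes. GADD45A, a growth arrest and repair factor, was at 2.85, 3.30 and 3.06 CPM in the control, 6.00, 5.89 and 6.85 CPM at 0.5% and 91.1, 94.6 and 98.8 CPM at 1% (4.95 ± 0.10 for 1% against control, edgeR adjusted p = 2.56e-13). PMAIP1 was at 2.15, 2.25 and 2.48 CPM in the control, 1.29, 2.32 and 2.08 CPM at 0.5% and 28.5, 33.0 and 28.4 CPM at 1% (3.70 ± 0.16, adjusted p = 1.55e-10). GADD45A thus rose at both doses, and PMAIP1 was called at 1% and not at 0.5%.

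GDF15 was at 0.347, 0.0749 and 0.261 CPM in the control, 0.967, 1.06 and 0.604 CPM at 0.5% and 11.6, 19.1 and 12.9 CPM at 1%. Its log2 fold change was 1.89 ± 0.52 at 0.5% (adjusted p = 0.0108) and 5.93 ± 0.34 at 1% (adjusted p = 2.65e-09), against a control with 10 counts in all, so its size is poorly fixed. TNFRSF10B, which CHOP is known to induce, was at 17.8, 15.9 and 15.8 CPM in the control, 18.1, 13.5 and 15.2 CPM at 0.5% and 61.9, 72.5 and 62.0 CPM at 1% (1.99 ± 0.11, adjusted p = 1.53e-09). TNFRSF10A instead was at 21.7, 22.7 and 22.5 CPM, 19.1, 15.2 and 17.5 CPM, and 14.3, 17.0 and 13.4 CPM at control, 0.5% and 1% (-0.58 ± 0.11 at 1%, adjusted p = 0.000455). Here too the TRAIL receptors parted.

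CDKN1A did not follow the dose in one direction. It was at 9.73, 10.5 and 9.72 CPM in the control, 5.93, 3.51 and 5.51 CPM at 0.5% and 19.9, 28.5 and 22.0 CPM at 1%, with log2 fold changes of -0.999 ± 0.19 at 0.5% (adjusted p = 0.000775) and 1.24 ± 0.17 at 1% (1.5e-05). The 3 groups did not overlap. MDM2 stayed between 130 and 165 CPM in all 9 libraries, with 0.11 ± 0.08 at 1% (edgeR adjusted p = 0.256). Under scaling by total count it was called higher at 0.5% (0.26, adjusted p = 0.0177) and at 1% (0.29, adjusted p = 0.00554). ZMAT3 was at 18.8, 18.1 and 18.4 CPM in the control, 25.5, 35.5 and 25.6 CPM at 0.5% and 57.9, 65.1 and 57.0 CPM at 1%, a rise at each step. BTG2, SESN1 and RRM2B rose at 1% by 1.15, 1.14 and 1.10, and FAS by 0.81. PLK2 was the largest fall, at 270, 297 and 285 CPM in the control, 303, 181 and 307 CPM at 0.5% and 52.0, 36.3 and 53.3 CPM at 1% (-2.59 ± 0.23, adjusted p = 2.29e-05). TP53I3 also fell at 1%, by 1.01. AEN changed by -1.25 ± 0.32 at 0.5% (adjusted p = 0.00798), at under 6 CPM in every library.

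**Figure D4:**
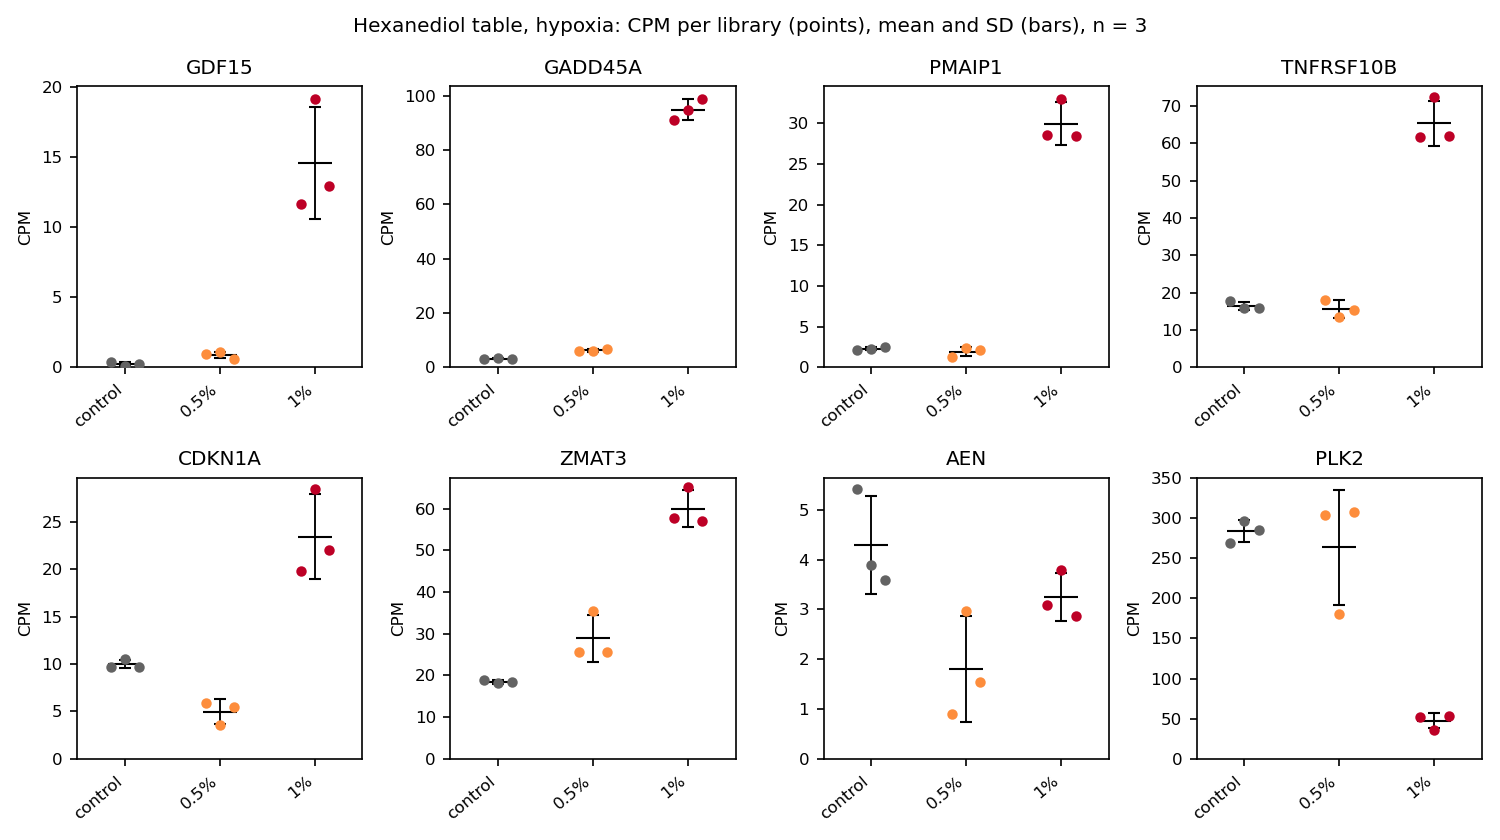
CPM of p53 target genes in the hexanediol table at control, 0.5% and 1% (points are libraries, bars the mean and SD, n = 3, linear axes from 0). GADD45A, PMAIP1 and TNFRSF10B rise at 1% (91.1 to 98.8 CPM for GADD45A), CDKN1A is lowest at 0.5% and highest at 1%, and PLK2 drops at 1%.

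Between doses, 16 members were higher and 5 lower at 1% than at 0.5% (28.3% and 27.7% of all genes). GDF15, PMAIP1 and GADD45A differed most, by 4.04, 3.98 and 3.92, followed by CDKN1A (2.23 ± 0.18, adjusted p = 1.27e-07) and TNFRSF10B (2.07 ± 0.11). AEN was higher by 0.85 ± 0.33 (adjusted p = 0.0414), and this call was lost when any of 5 of the 6 libraries compared was left out (0.50 to 1.41). Without the second library of both the 0.5% and the 1% group, 16 members were higher and 8 lower at 1% against control. Of all 17248 genes then tested, 5560 were higher and 6006 lower. Scaling by total count gave 12 higher and 5 lower at 0.5%, and 18 higher and 4 lower at 1%, with 66% and 59.8% of all calls higher, against 49.7% and 48.3%.

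At 1%, 15 of 18 ATF4 and CHOP targets were higher and 1 lower, DDIT3 by 4.76 and CHAC1 by 4.40. The 24 DREAM-repressed genes did not follow the dose in one direction either. At 0.5% all 24 were lower than in the control, 17 of them at least 2-fold, with a median of -1.29. At 1% 8 were higher and 9 lower than in the control, with a median of 0.0061, and 23 were higher than at 0.5%, with a median of 1.35. Of 38 further p53 targets 16 were higher and 11 lower. Luminal markers were at 25090 to 27910 CPM in the control, 10850 to 15450 CPM at 0.5% and 3605 to 3850 CPM at 1% in sum, with 0 higher and 9 lower of 10 at 1%. The 13 markers of other cell types summed to 44.3 to 51.6 CPM in the control, 53.3 to 57.5 CPM at 0.5% and 48.8 to 54.8 CPM at 1%, with none of them at 0 throughout a group, and without COL1A1 to 16.5 to 22.6 CPM over all libraries. The part of these shifts in the members' changes was not tested.

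In the sgRNA table the members split evenly, as did all genes. In the libraries labelled sgZHX2, 14 of 31 members were higher and 14 lower than in sgCtrl (37% and 36.1% of all 15781 genes), with a median of 0.02. In those labelled teton sgZHX2, 12 were higher and 14 lower than in the teton control (34.4% and 34.7%), with a median of 0.03. GDF15 was at 839, 855 and 898 CPM in sgZHX2 libraries, against 478, 481 and 491 CPM in sgCtrl libraries (0.84 ± 0.03, edgeR adjusted p = 6.87e-31), and at 738, 721 and 723 CPM in teton sgZHX2 libraries, against 457, 473 and 458 CPM in teton control libraries (0.65 ± 0.03, adjusted p = 1.71e-26). PHLDA3, FDXR and AEN rose in both, by 0.77, 0.65 and 0.59 with sgZHX2 and 0.54, 0.40 and 0.59 with teton sgZHX2, where FDXR lost its call with a GC and length correction (adjusted p = 0.693). CDKN1A rose by 0.22 and 0.21, which the same correction turned to -0.24 and -0.15, both called lower. TP53I11 with sgZHX2 turned likewise, to -0.21 with the correction against 0.22 without it. In all the correction gave 9 members higher and 13 lower with sgZHX2, and 7 higher and 15 lower with teton sgZHX2. Over all 15781 genes it gave 5019 higher and 5453 lower with sgZHX2, and 4851 higher and 5222 lower with teton sgZHX2.

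The feedback genes CCNG1 and MDM2 fell in both. CCNG1 was at 77.9, 77.0 and 81.0 CPM in sgZHX2 libraries, against 181, 188 and 178 CPM in sgCtrl libraries (-1.21 ± 0.03, adjusted p = 4.1e-33), and at 99.9, 96.2 and 96.6 CPM in teton sgZHX2 libraries, against 173, 164 and 173 CPM in teton control libraries (-0.80 ± 0.03, adjusted p = 1.86e-26). MDM2 was at 149, 144 and 145 CPM in sgZHX2 libraries, against 212, 214 and 213 CPM in sgCtrl libraries (-0.54 ± 0.03, adjusted p = 1.43e-22), and changed by -0.48 ± 0.03 with teton sgZHX2 (adjusted p = 2.02e-20). With a GC and length correction MDM2 no longer passed the test with sgZHX2 (-0.035, adjusted p = 0.221). SESN1 was at 21.8, 18.5 and 20.8 CPM in sgZHX2 libraries, against 42.7, 44.8 and 43.0 CPM in sgCtrl libraries (-1.10 ± 0.05, adjusted p = 1.94e-22), and changed by -0.88 with teton sgZHX2. RRM2B and ZMAT3 changed by -0.93 and -0.68 with sgZHX2 and -0.76 and -0.46 with teton sgZHX2, where ZMAT3 lost its call with that correction (adjusted p = 0.125). None of the groups of CCNG1, MDM2 or SESN1 overlapped. MDM4, the MDM2 partner, changed by -0.51 and -0.45.

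The pair of sgRNA comparisons share no library. Of 25 members called in both, 12 were higher in both, 13 lower in both and 0 opposite, and 99.3% of all 9807 genes called in both also had the same sign. The size differed at 13 members by a test of the difference itself, 7 with a more positive and 6 with a more negative teton effect, against 12% and 8.33% of all genes. TP53I3 differed most. It was at 35.0, 38.7 and 39.7 CPM in sgZHX2 libraries, against 16.6, 17.8 and 18.3 CPM in sgCtrl libraries, and at 30.5, 33.2 and 31.05 CPM in teton sgZHX2 libraries, against 27.6, 28.2 and 27.9 CPM in teton control libraries, a difference of -0.92 ± 0.08 (edgeR adjusted p = 1.61e-12). With a GC and length correction its rise with teton sgZHX2 turned to -0.18 (adjusted p = 0.00133). The same correction left 3 members with a more positive and 5 with a more negative teton effect, against 839 and 373 of all genes. DREAM-repressed genes had 5 higher and 19 lower of 24 in both comparisons, and of the ATF4 and CHOP targets 14 were higher and 3 lower with sgZHX2. CHAC1 rose by 3.27 and 2.77. The 13 markers of other cell types summed to 58.8 to 59.9 CPM in sgZHX2 and 28.97 to 31.6 CPM in sgCtrl libraries, and to 51.5 to 52.9 CPM in teton sgZHX2 and 31.4 to 33.5 CPM in teton control libraries. Most of this was COL1A1, and the other 12 summed to 4.84 to 6.43 CPM in sgZHX2 and 2.67 to 3.21 CPM in sgCtrl libraries, and to 3.70 to 4.91 CPM in teton sgZHX2 and 2.45 to 3.78 CPM in teton control libraries. The part of these shifts was not tested.

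**Figure D5:**
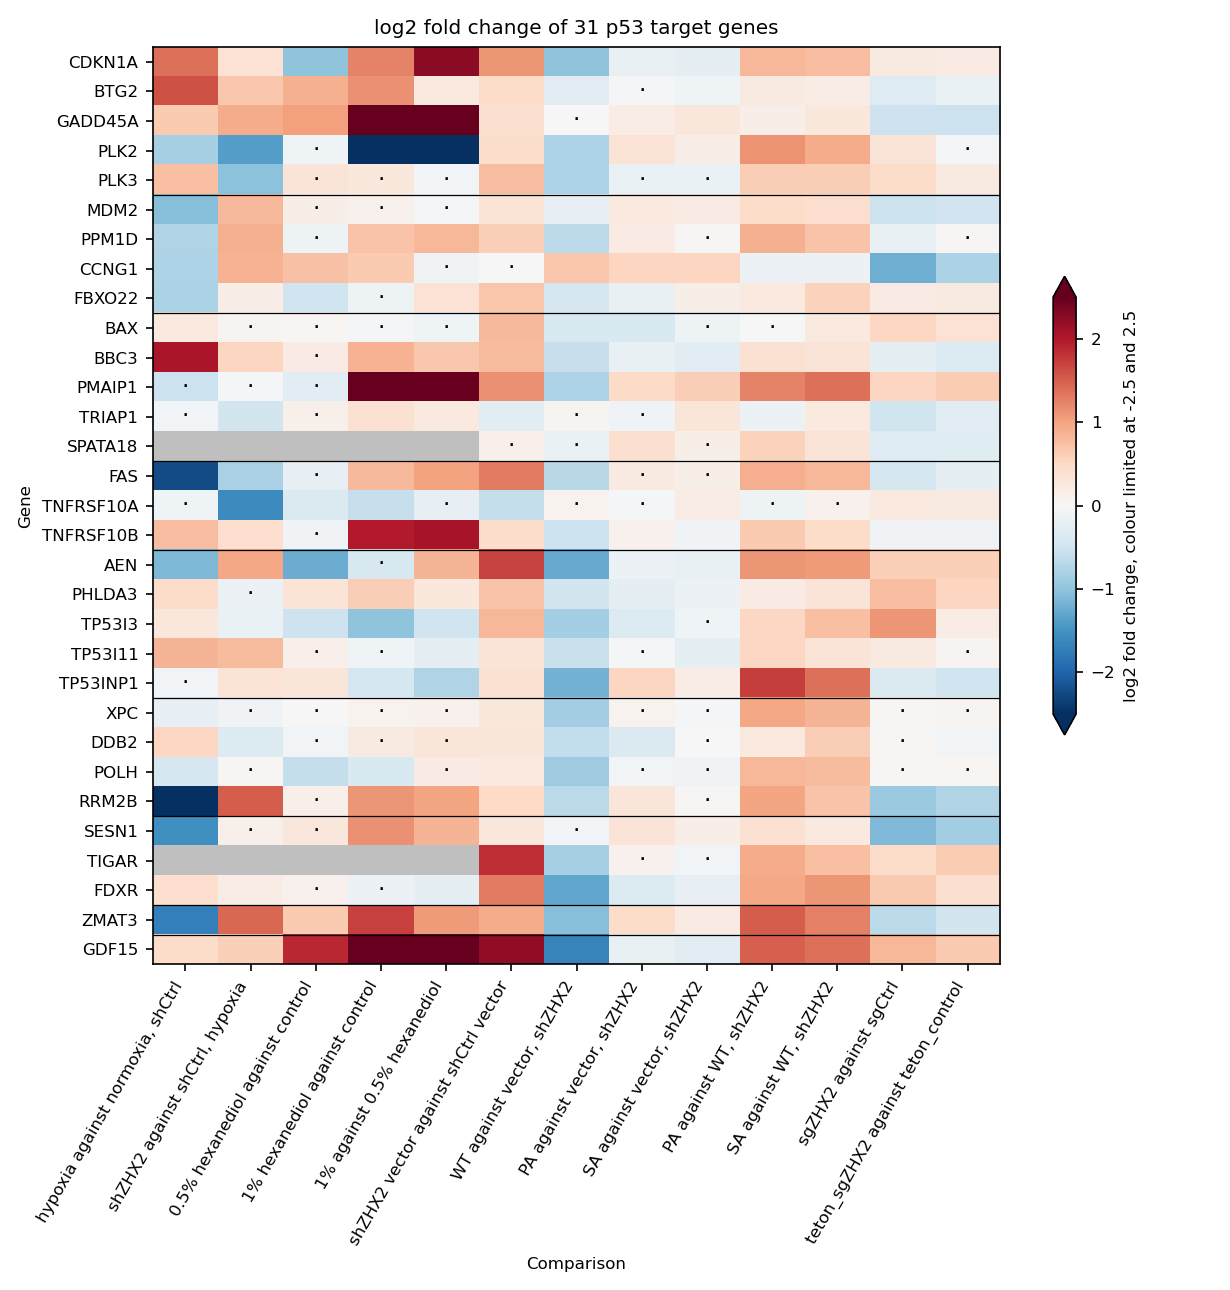
Log2 fold change (colour) of the 31 members, ordered by role, in the 13 comparisons. A dot marks a change that did not pass an adjusted p of 0.05, and grey marks SPATA18 and TIGAR where they were not tested. The columns for shZHX2 vector against shCtrl vector and for PA and SA against WT are nearly all positive and that for WT against vector nearly all negative, while the hypoxia and sgRNA columns mix signs.

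Across the comparisons the members seldom moved as a block. GDF15 was higher with shZHX2 in both tables, with sgZHX2 and teton sgZHX2, and at both hexanediol doses. CDKN1A was higher in the same comparisons except 0.5% hexanediol, where it fell, but with the GC and length correction it was lower with sgZHX2 and teton sgZHX2. MDM2 rose with shZHX2 in both tables, by 0.81 and 0.33, and fell with sgZHX2 (a call lost with that correction) and teton sgZHX2. It was not called at either hexanediol dose, but scaling by total count called it higher at both.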

How the data were processed

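RNA of 45 libraries was read as 150 bp pairs. The deposited values are raw read counts per gene in 4 tables. The submitters' processing notes name the build hg38 and, without versions, HISAT2, featureCounts, FastQC and DESeq2. Neither annotation nor strand setting is given in the sources used here. No deposited column was left unused.

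Groups were taken from the labels. Each table was fitted on its own with edgeR 4.0.16 in R 4.3.3 (limma 3.58.1): genes were kept by filterByExpr, libraries scaled by TMM, and all groups of the table fitted in one quasi-likelihood model with robust dispersion and no block. P-values were adjusted by Benjamini-Hochberg over all genes tested (14903, 16840, 14302 and 15781 genes in the shRNA, hexanediol, rescue and sgRNA tables). A gene was called at an adjusted p under 0.05. The common coefficient of variation was 4.15%, 10.2%, 3.16% and 2.81%. CPM use TMM-scaled library sizes, and TPM use exon lengths of GENCODE 29. The SE is the log2 fold change over the root of the F statistic. Members were looked up by symbol. The members and the other lists were chosen with earlier results of these data known, so no p-value is given over a list. CDKN1A, MDM2 and GDF15 and up to 12 called members per comparison, by size of change, are given in full, and up to 4 genes of other lists. Some genes that this rule names are not reported here. The scripts were tested on simulated counts.

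Replicates of a group differed by more than sampling noise (chi-square per degree of freedom 1.7 to 25), and none were merged. Replicate numbers did not clearly pair samples. The correlation of deviations between samples of the same number was highest between 0.5% and 1% hexanediol (0.112, 0.305 and 0.108). There the highest correlation of samples with different numbers was 0.161, which only the second libraries exceeded. With a replicate block 17 members were higher and 4 lower between these doses, against 16 and 5 without it. Of all 16840 genes, 4967 were higher and 4842 lower with the block. In edgeR's test DDB2 was gained (0.31, adjusted p = 0.0239) and FDXR lost (-0.24, adjusted p = 0.0503). Alternatives were scaling by total count, no filter, DESeq2 1.42.0, only the groups compared, a GC and length correction, a replicate block, both together, and leaving out each library.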

Additional observations from a re-analysis of the deposited data

Results flagged for a closer look

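The following values were singled out because the effect of the same contrast differed between groups of libraries. The difference between the effect of teton sgZHX2 against teton control and that of sgZHX2 against sgCtrl passed edgeR's quasi-likelihood test with Benjamini-Hochberg adjustment at 13 members. On the log2 scale it was -0.92 for TP53I3, 0.41 for CCNG1, -0.38 for PLK2, -0.25 for FDXR, 0.24 for TRIAP1, -0.23 for PHLDA3 and 0.23 for PPM1D. It was 0.22 for SESN1, 0.22 for ZMAT3, -0.18 for GDF15, 0.17 for RRM2B, -0.16 for TP53I11 and 0.16 for BTG2. With a GC and length correction the difference no longer passed the test at FDXR, TRIAP1, SESN1, ZMAT3, GDF15, RRM2B and TP53I11. PLK2 was called with sgZHX2 (0.33 ± 0.06) and not with teton sgZHX2 (-0.06 ± 0.05), and TP53I3 was called in both (0.18 ± 0.05 with teton sgZHX2, 1.10 ± 0.06 with sgZHX2), though with the correction its teton sgZHX2 value turned to -0.18 (adjusted p = 0.00133).

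At 5 of 29 members, every shZHX2 library lay on opposite sides of its shCtrl libraries in the shRNA and rescue tables. This difference between tables was not tested. Over all genes tested in both tables, 2614 of 13060 were called in opposite directions, with overlap of libraries not checked. The share of members called in opposite directions was thus no higher than that of all genes. The log2 fold change was -1.37 in the shRNA table and 0.44 in the rescue table for PLK2, and -1.02 and 0.77 for PLK3. It was -0.82 and 1.28 for FAS, -0.17 and 0.82 for TP53I3, and -0.33 and 0.30 for DDB2. Under scaling by total count TP53I3 turned to 0.060 in the shRNA table (adjusted p = 0.0251). Groups of 3 libraries are too small for a test of single outlying libraries.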

How the results depend on the processing

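Of 190 counts of called members under alternatives, 186 stayed within 1.5 times the value reported. SA against the vector fell to 11 called members with the GC and length correction, alone or with the replicate block, and the difference of the sgRNA effects to 8 and 7. Without one library each, calls ranged from 25 to 26 in hypoxia, 22 to 24 with shZHX2, 11 to 14 and 20 to 20 at 0.5% and 1% hexanediol, 17 to 21 between doses, 29 to 29 for shZHX2 vector, 26 to 26 for WT, 22 to 23 and 17 to 19 for PA and SA against the vector, 28 to 30 and 29 to 30 for PA and SA against WT, 26 to 28 and 23 to 25 for sgZHX2 and teton sgZHX2, and 11 to 15 for the difference. Over all 325 member calls in the 13 comparisons and the difference of the sgRNA effects, the replicate block lost 2 (FDXR between hexanediol doses and PLK3 with teton sgZHX2, adjusted p = 0.0503 and 0.053), added 3 (PHLDA3 with shZHX2 at -0.15, DDB2 between doses and BAX for SA against the vector at -0.13) and turned 0. Scaling by total count turned the direction of 8 calls, 4 of which were then called the other way, lost 17 others and added 26. The GC and length correction turned 33, 16 of which were called the other way, lost 37 others and added 27. DESeq2 weakened 5 of the 186 values of members given in full.

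Under scaling by total count the turned values were BAX (-0.25), TP53I3 (-0.20), PHLDA3 (-0.027), FDXR (-0.062) and GDF15 (-0.0325) in hypoxia, TP53I3 with shZHX2 in the shRNA table (0.060), and CCNG1 (0.093) and TRIAP1 (0.090) for PA against WT. ZHX2 also turned, to -0.34, in hypoxia. Under the GC and length correction, with nearly the same value for those given in full when the replicate block was added, they were MDM2 (0.30), FBXO22 (0.88), CCNG1 (0.52), BAX (-0.54), PHLDA3 (-0.32), TP53I3 (-0.48), FDXR (-0.40), PLK3 (-0.056) and GDF15 (-0.47, -0.46 with the block) in hypoxia, and FBXO22 (-0.13) and TP53I3 (0.021) with shZHX2 in the shRNA table. Between hexanediol doses they were TP53I11 (0.054) and FDXR (0.12). In the rescue table they were CDKN1A (0.012), MDM2 (-0.023, -0.022 with the block) and GDF15 (0.082) for PA against the vector, FBXO22 (-0.014), PHLDA3 (0.038) and FDXR (0.019) for SA against the vector, CCNG1 (0.11) and TRIAP1 (0.18) for PA against WT, and CCNG1 (0.066) for SA against WT. In the sgRNA table they were CDKN1A (-0.24), TP53I11 (-0.21), PLK3 (-0.092) and TP53INP1 (0.075) with sgZHX2, CDKN1A (-0.15), TP53I3 (-0.18), PLK3 (-0.20), BAX (-0.020), FDXR (-0.016) and FAS (0.00095) with teton sgZHX2, and RRM2B in the difference of the effects (-0.0057, -0.0065 with the block). Of genes outside the members, MDM4 turned in hypoxia (0.59) and for shZHX2 vector (0.025, 0.024 with the block), and ZHX2 with sgZHX2 (-0.079, -0.0780 with the block) and teton sgZHX2 (-0.10). The cause was not tested. Members have wide errors where they are under about 5 CPM. Examples are TIGAR, FAS and PLK3 in hypoxic cells of the shRNA table, and GDF15 in the control and 0.5% groups of the hexanediol table. Differences in level between tables carry no test.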
